A study of Mus musculus with 16 samples.

Results

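The cultures compared here were spermatogonial stem cells from male mice lacking miR-202 and from wildtype males, both on a mixed C57;ICR background and both from pups of 6 to 7 days after birth. The 6 libraries, 3 knockout and 3 wildtype, belong to a series of 16 that also holds isolated spermatogonia of the same age (2 knockout, 2 wildtype) and isolated adult spermatocytes (3 knockout, 3 wildtype). All 6 cultures were kept with GDNF and bFGF, and the labels say neither how the deletion was made nor whether the cells grew on feeder cells. Genes with an FPKM (fragments mapped to a gene, divided by transcript length and by the mapped total of the library) of at least 1 in at least 2 of the 6 culture libraries were compared, which gave 12046 of 22293 genes.

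Spermatogonial stem cells are the undifferentiated germ cells that sustain sperm production, and in culture they renew in response to GDNF, which signals through Gfra1 and Ret, and to fibroblast growth factors. They are commonly grown on or beside fibroblasts or testis somatic cells, so a culture's RNA can hold collagen, matrix and chemokine transcripts that germ cells make little of. A microRNA pairs with messenger RNAs mainly through its seed, bases 2 to 8 from its 5′ end, and represses them.

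The deleted gene is shown first because its products define the comparison. RefSeq places the Mir202 hairpin on the minus strand at chr7:139957689-139957760 (GRCm38.p6). Capitals mark the mature arms in the hairpin and the seed in each mature sequence. let-7a is added because its seed shares bases 2 to 7 with that of the 3p arm.
Mir202 hairpin: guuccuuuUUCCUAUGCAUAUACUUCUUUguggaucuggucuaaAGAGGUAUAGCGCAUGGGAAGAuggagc
miR-202-5p: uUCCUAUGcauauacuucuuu
miR-202-3p: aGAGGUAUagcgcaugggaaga
let-7a-5p: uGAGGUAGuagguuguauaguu

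Among 1679 mature mouse microRNA names in the RefSeq table, 12 others shared bases 2 to 7 with miR-202-3p and 1 of them, let-7j, shared all of bases 2 to 8. None shared bases 2 to 7 with miR-202-5p. Mir202 was listed at 0 FPKM in all 16 libraries, so the files give no check of the genotype.

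Stromal genes were lower in the knockout cultures than in the wildtype cultures, while none of the germ cell genes passed the test in either direction. Over the 168 genes of the stromal lists (fibroblast identity, collagens, matrix proteins, smooth muscle, chemokines and testis somatic cells), the summed level was 2264, 2048 and 1643 FPKM in knockout replicates 1 to 3, against 5164, 4708 and 4118 FPKM in wildtype replicates 1 to 3. The germ cell set held 120 list genes and left out list members that somatic cells also express, such as Kit, Etv5, Ngfr and Crabp1, which are described by list. The 120 genes summed to 4405, 4652 and 4917 FPKM in the knockout cultures and to 4132, 3956 and 5264 FPKM in the wildtype cultures. The stromal sums did not overlap between the groups and the germ cell sums did, through wildtype replicate 3 alone. Stromal genes made up 0.521% to 0.782% of all FPKM in the knockout cultures and 1.13% to 1.76% in the wildtype cultures. The germ cell set made up 1.52% to 1.59% in the knockout cultures and 1.33% to 1.45% in the wildtype cultures, so its share was slightly higher in knockout, without overlap. In bulk cultures fewer stromal cells and less stromal RNA per cell cannot be told apart.

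**Figure D1:**
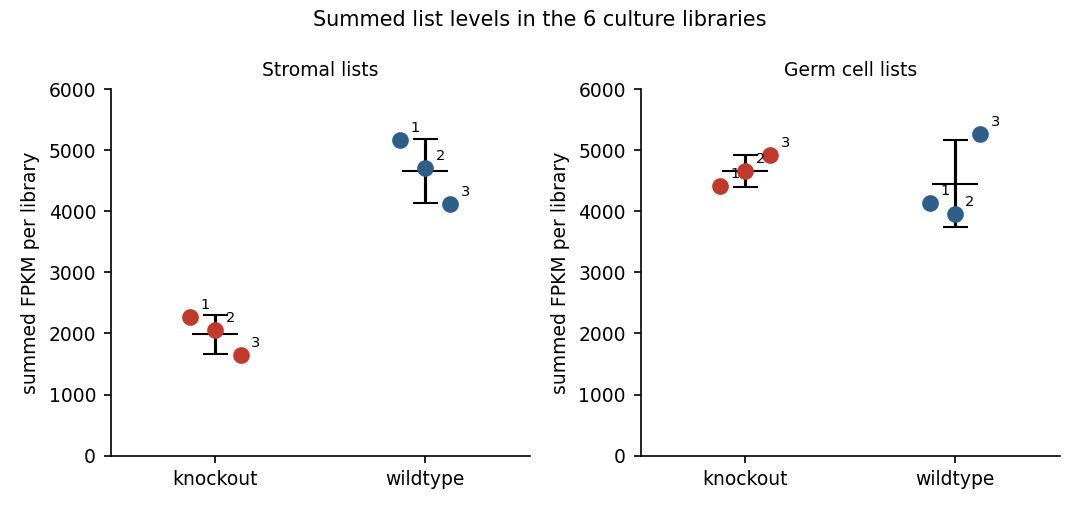
Summed FPKM of the 168 stromal list genes (left) and the 120 germ cell list genes (right) in each culture library, knockout left of wildtype; numbers beside the points are replicates, and the black line and bars are the mean and SD of 3 libraries. The knockout stromal sums lie between 1643 and 2264 FPKM, all below the wildtype sums of 4118 to 5164 FPKM, and the germ cell sums overlap.

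Differences per gene were tested with limma on log2(FPKM + 1), 1 fit over all 16 libraries, with Benjamini-Hochberg adjustment over the 12046 genes and a threshold of 0.05. Of these genes 743 passed (6.17%), with 39 higher (0.324%) and 704 lower (5.84%) in knockout cultures. Of the 704, 145 were under 1 FPKM in every knockout culture and passed the level filter through the wildtype cultures alone. Among the 11735 genes with at least 1 FPKM in some library of both groups, 559 were lower and 32 higher. At an unadjusted p under 0.05 there were 2004 of the 12046 genes (16.6%). The 3 knockout libraries lay wholly below the 3 wildtype libraries for 1410 genes (11.7%) and wholly above them for 796 (6.61%). Among the called genes, 284 of the 704 lower ones (40.3%) and 6 of the 39 higher ones (15.4%) differed by at least 1 unit of log2(FPKM + 1). By mean FPKM, the ratio of wildtype to knockout over the 704 had a median of 2.64 and a lower quartile of 1.99. The number of calls depended on how the spread was estimated: a fit on the 6 cultures alone called 255 genes, 4 higher and 251 lower. Without knockout replicate 3 there were 483 calls, and with a pseudocount of 0.1 there were 399, again with lower genes in the majority (473 and 388).

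Wildtype replicate 3 stood apart by transcript length. Its genes with transcripts under 1000 bases were a median of 0.64 higher on the log2 scale than in the other 2 wildtype cultures, and those of 6000 bases or more were 0.46 lower (a log2 difference of -0.46). The knockout replicates differed by at most 0.19 in any length class. Without wildtype replicate 3 there were 798 calls, 37 higher and 761 lower, with 81 stromal list genes among the lower and 1 germ cell list gene, Mei4, called higher.

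**Figure D2:**
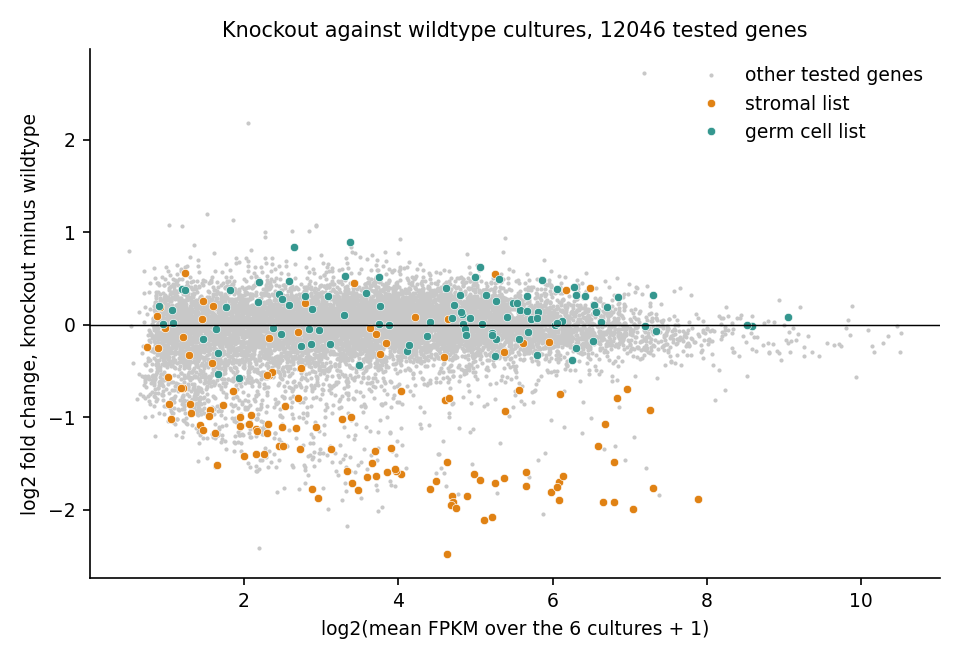
Log2 fold change (knockout minus wildtype, vertical) against log2 of the mean FPKM plus 1 over the 6 cultures (horizontal) for the 12046 tested genes. The stromal list genes (orange) extend down to -2.47, while the germ cell list genes (green) lie between -0.58 and 0.89.

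Of the 168 stromal list genes, 123 passed the level filter. Among them 75 fell, beside 5.84% of all tested genes, 0 rose and 48 did not pass the test. The other 629 of the 704 lower genes were outside these lists. In the stromal lists 81 of the 123 were lower in every knockout library than in every wildtype library, beside 11.7% of all tested genes. Of the 123, 8 passed the filter through the wildtype cultures alone, and 69 of the 113 with at least 1 FPKM in some library of both groups fell. The median log2 fold change of the 123 was -1.08, beside -0.02 over all tested genes. For the 75 that fell, the ratio of the wildtype mean to the knockout mean had a median of 3.23 and an interquartile range of 2.86 to 3.63. The lists were chosen with earlier results of these data known, so these counts describe the genes and are not an independent test. Beside each count of lower genes in the lists that follow, the share over all tested genes was 5.84%. For counts limited to genes with at least 1 FPKM in some library of both groups, it was 559 of 11735.

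Chemokines and cytokines, which recruit and instruct leukocytes and are made by activated fibroblasts, held 12 lower genes of 18 tested in the list (median log2 fold change -1.49). Over all CC and CXC chemokines in the files, taken by symbol after the values were seen, 8 of 19 tested fell (median -0.71). Ccl8, a monocyte attractant, had 7.80, 8.09 and 4.08 FPKM in knockout cultures and 40.8, 30.0 and 52.6 FPKM in wildtype cultures. Every knockout value of Ccl8 was far below every wildtype value. Its log2 fold change was -2.47 (95% interval -2.93 to -2.02, limma adjusted p = 2.6e-05). Ccl2, which draws in monocytes, had 50.7, 41.5 and 32.5 FPKM in knockout cultures and 158, 134 and 182 FPKM in wildtype cultures. The groups were far apart, with a log2 fold change of -1.91 and the same adjusted p. Ccl7 (-2.08) and the eosinophil attractant Ccl11 (-1.92) fell in the same way. Saa3, an acute-phase protein, was the most abundant of the list, at 101.6 ± 31.1 FPKM in knockout cultures and 367 ± 49.5 FPKM in wildtype cultures (SD, n = 3 each; log2 fold change -1.89). The 6 members that did not pass were Lcn2, C3, Il33, Lif, Cxcl10 and Tslp. Lcn2, an iron-scavenging protein, varied widely within each group, with 22.6, 1.31 and 3.32 FPKM in knockout cultures and 3.45, 58.6 and 2.91 FPKM in wildtype cultures.

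Genes of fibroblast identity showed 17 lower of 22 tested, and the other 5 were also below 0 (median -1.32). Of the 20 with at least 1 FPKM in some library of both groups, 16 fell. Vim, the intermediate filament of mesenchymal cells, had 90.7, 78.3 and 48.5 FPKM in knockout cultures and 261.9, 221 and 239 FPKM in wildtype cultures, without overlap. Its log2 fold change was -1.76 (limma adjusted p = 0.00553). S100a4, a calcium-binding protein used as a fibroblast marker, averaged 29.3 ± 5.4 FPKM in knockout cultures and 101.7 ± 24.8 FPKM in wildtype cultures (SD, n = 3 each; log2 fold change -1.75). The transcription factors Prrx1 and Tbx15, which mark limb and skin mesenchyme, fell by 1.14 and 1.08 on the log2 scale. Tbx15 was under 1 FPKM in every knockout culture and passed the level filter through the wildtype cultures alone. Cd44, the hyaluronan receptor, fell by 1.71. Pdgfra, a receptor of mesenchymal progenitors, had 3.04, 3.15 and 2.83 FPKM in knockout cultures against 5.58, 4.91 and 4.10 FPKM in wildtype cultures and just missed the threshold (adjusted p = 0.0515). Twist1, a mesenchymal regulator, was nearly level, at 11.7, 10.3 and 11.7 FPKM in knockout cultures and 11.7, 9.25 and 14.1 FPKM in wildtype cultures.

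Collagen chains fell for 16 of the 19 tested in the list (median -1.10), and for 16 of 25 tested when all chains in the files were taken by symbol (median -1.02). Of those that fell, Col4a5, Col7a1 and Col11a1 were under 1 FPKM in every knockout culture and passed the level filter through the wildtype cultures alone. Among the 16 listed chains with at least 1 FPKM in some library of both groups, 13 fell. Col1a2, a chain of type I collagen, had 42.6, 38.2 and 16.1 FPKM in knockout cultures and 128, 107 and 70.7 FPKM in wildtype cultures. The groups did not overlap, and the log2 fold change was -1.70 (limma adjusted p = 0.00204). Col5a2, a chain of type V collagen, fell by 1.85 on the log2 scale and Col16a1, a fibril-associated collagen, by 1.31. Col1a1, the partner chain of Col1a2, averaged 63.0 ± 15.7 FPKM in knockout cultures and 140.8 ± 62.2 FPKM in wildtype cultures (SD, n = 3 each; log2 fold change -1.08, adjusted p = 0.0242). That call was lost without wildtype replicate 1 (adjusted p = 0.0905), without wildtype replicate 2 (0.0793) and without knockout replicate 3 (0.14). The listed chains that did not pass were Col5a1, Col8a2 and Col18a1, with log2 fold changes of -0.19, -0.25 and -0.30. Outside the list Col13a1, Col17a1, Col22a1, Col25a1, Col2a1 and Col9a3 did not pass either, with log2 fold changes from -0.42 for Col9a3 to 0.26 for Col2a1.

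Matrix glycoproteins, proteoglycans and their enzymes fell for 29 of 40 tested (median -1.32), and for 28 of the 39 with at least 1 FPKM in some library of both groups. Mmp3, stromelysin, which degrades matrix proteins, had 80.7, 46.3 and 34.5 FPKM in knockout cultures and 163, 258 and 201.97 FPKM in wildtype cultures. All 3 knockout values were under all 3 wildtype values, with a log2 fold change of -1.99 (limma adjusted p = 0.000166). Tnc, the matrix protein tenascin C, had 26.6, 45.0 and 14.1 FPKM in knockout cultures and 157, 89.4 and 67.5 FPKM in wildtype cultures (-1.89). Cyr61, a matricellular protein, fell by 1.95 on the log2 scale, Thbs2, thrombospondin 2, by 1.97, Postn, periostin, by 1.67, and the gelatinase Mmp2 by 1.48. Sparc, which binds collagen, averaged 48.4 ± 21.5 FPKM in knockout cultures and 171.8 ± 29.8 FPKM in wildtype cultures (SD, n = 3 each; adjusted p = 0.0156). The Sparc call was lost without wildtype replicate 1 (adjusted p = 0.0602) and without knockout replicate 3 (0.0961).

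Not all matrix genes were lower. Of the 40 tested, 4 had log2 fold changes above 0: the basement membrane proteins Nid1 (0.40) and Nid2 (0.38), the laminin chain Lamc1 (0.09) and the fibulin Fbln1 (0.06), none of which passed the test. Nid1 had 88.5, 78.6 and 130 FPKM in knockout cultures and 112, 76.5 and 45.4 FPKM in wildtype cultures, with overlap. Fn1, fibronectin, did not pass either (adjusted p = 0.286). It had 91.2, 82.3 and 54.9 FPKM in knockout cultures, and the wildtype replicate 3 value of 56.3 FPKM lay well below the 201 and 190 FPKM of wildtype replicates 1 and 2.

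Smooth muscle and myoid genes fell for 6 of 10 tested (median -1.38), and for 5 of the 9 with at least 1 FPKM in some library of both groups. Tagln, an actin-binding protein of smooth muscle, had 11.5, 18.7 and 6.60 FPKM in knockout cultures and 56.6, 34.5 and 72.8 FPKM in wildtype cultures, without overlap (log2 fold change -2.11, limma adjusted p = 0.000963). Acta2, smooth muscle actin, averaged 11.2 ± 6.2 FPKM in knockout cultures and 38.8 ± 8.1 FPKM in wildtype cultures (SD, n = 3 each; -1.85). Cald1, caldesmon, fell by 1.77 on the log2 scale and Tpm2, a tropomyosin, by 1.42. Smtn and Mylk did not pass, at -0.08 and 0.06.

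**Figure D3:**
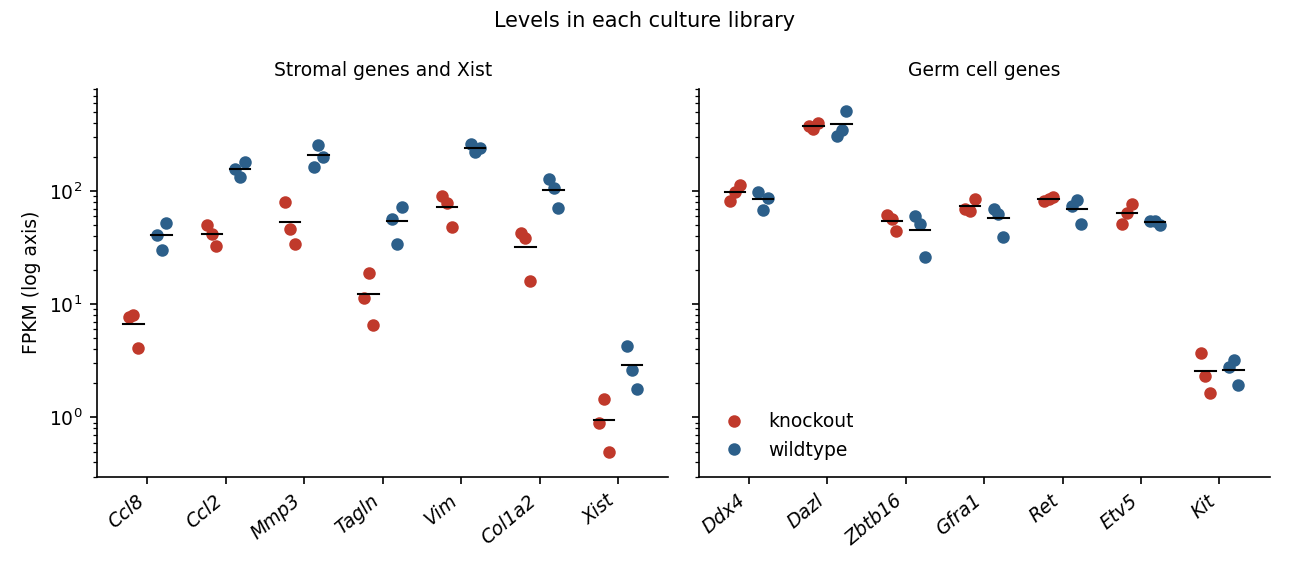
FPKM on a log axis in each knockout (red) and wildtype (blue) culture for 6 stromal genes and Xist (left) and 7 genes of the germ cell lists, 2 of them (Etv5 and Kit) shared with somatic cells (right); points are libraries and black lines are means of 3. The knockout points of the stromal genes and Xist lie below all wildtype points, and the germ cell genes overlap between the groups.

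Markers of other somatic cell types followed. Of 8 macrophage genes tested (median log2 fold change -0.14), 3 were lower at an unadjusted p under 0.05. The share of all tested genes at that p, in either direction, was 16.6%. Lyz2, lysozyme, alone passed the adjusted test, beside 5.84% of all tested genes that were lower. Lyz2 had 118, 91.6 and 75.9 FPKM in knockout cultures and 161, 156 and 140 FPKM in wildtype cultures (log2 fold change -0.69, limma adjusted p = 0.0344). The Lyz2 call was lost without wildtype replicate 1, wildtype replicate 2, knockout replicate 2 and knockout replicate 3 in turn, with adjusted p-values of 0.0938, 0.0939, 0.107 and 0.181. Tyrobp and Cd14, a signalling adaptor and a lipopolysaccharide co-receptor of myeloid cells, were lower in every knockout library without passing (log2 fold changes -0.88 and -0.55, adjusted p = 0.0775 and 0.116). Emr1, Cd68 and Mrc1 were above 0 (0.25, 0.23 and 0.09), and C1qa and Fcer1g were at -0.14 and -0.15, all without passing. Ptprc, the pan-leukocyte surface protein, stayed under 1 FPKM in all 6 cultures. None of the 5 Sertoli cell, 3 Leydig cell and 5 endothelial genes tested passed, and at an unadjusted p under 0.05 there were 3, 1 and 0 of them. Amh, a Sertoli cell hormone, was under 1 FPKM in all 6 cultures, as was Insl3, a Leydig cell hormone. The Sertoli cell list kept only 5 of its 16 genes after the level filter.

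Xist, the RNA that coats the inactive X chromosome and is normally expressed in female somatic cells, was present although the mice were labelled male. It had 0.890, 1.47 and 0.496 FPKM in knockout cultures and 4.31, 2.65 and 1.78 FPKM in wildtype cultures. The groups did not overlap, and the log2 fold change was -0.98 (limma adjusted p = 0.00537). Isolated spermatogonia averaged 0.0962 FPKM in knockout and 0.0474 FPKM in wildtype. Like the summed stromal level, Xist was lower in every knockout culture than in every wildtype culture, and the source of its RNA was not tested.

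Germ cell genes gave a different picture. Of 120 listed, 97 passed the level filter, and 0 were called by limma in either direction, beside 6.17% of all tested genes. At an unadjusted p under 0.05 there were 14 of the 97, beside 16.6% of all tested genes. The knockout libraries lay wholly above the wildtype libraries for 10 of the 97, beside 6.61% of all tested genes, and wholly below them for 0, beside 11.7%. Their median log2 fold change was 0.09, with 63 above 0 and 34 below. Over all 12046 tested genes the median was -0.02, with 5684 above 0. For 87 of the 97 the 95% interval lay within 1 unit of 0 on the log2(FPKM + 1) scale; for low genes a 2-fold change is smaller than 1 unit on that scale. Alternative settings called 0 to 5 of them. Without knockout replicate 1, Utf1, Bcl6b, Tdrd5, Mei4 and Ovol2 were called higher. Tdrd9 and Utf1 were called higher without wildtype replicate 1, and Exd1, Mael and Utf1 with quantile normalization. Leaving out wildtype replicate 2 gave Lhx1 higher and Nanos2 lower, and leaving out knockout replicate 2 gave Eomes higher.

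Gfra1, Ret, Zbtb16, Etv5 and Id4 overlapped between the groups. Of the 39 tested genes of the undifferentiated list, 4 (Utf1, Taf4b, Foxo1 and Mcam) were higher in every knockout library than in every wildtype library. The share over all tested genes was 6.61%, and none of the 4 passed the test. Gfra1, the GDNF co-receptor, had 69.4, 66.5 and 85.2 FPKM in knockout cultures and 70.2, 62.6 and 39.3 FPKM in wildtype cultures, with only wildtype replicate 3 clearly lower. Its log2 fold change was 0.39 (95% interval -0.04 to 0.82, limma adjusted p = 0.361). Ret, the signalling partner of Gfra1, averaged 85.8 ± 3.4 FPKM in knockout cultures and 69.8 ± 16.7 FPKM in wildtype cultures (SD, n = 3 each; 0.32, interval -0.01 to 0.66). Zbtb16, a transcription factor of undifferentiated spermatogonia, averaged 54.0 ± 8.5 FPKM in knockout cultures and 45.7 ± 17.6 FPKM in wildtype cultures (0.31, interval -0.18 to 0.79). Etv5, a GDNF-induced transcription factor, had 51.6, 64.2 and 76.7 FPKM in knockout cultures and 54.7, 54.6 and 50.4 FPKM in wildtype cultures. Id4, a marker of stem cell spermatogonia, was at -0.15 (interval -0.57 to 0.27).

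Utf1, a chromatin protein of undifferentiated spermatogonia, had the largest positive log2(FPKM + 1) fold change of the germ cell set; by the ratio of means, knockout over wildtype, Ovol2 was larger (2.29, against 1.99 for Utf1). Utf1 had 8.19, 17.1 and 12.2 FPKM in knockout cultures and 8.09, 3.64 and 7.10 FPKM in wildtype cultures. The groups did not overlap, though the lowest knockout and the highest wildtype value were close, and the log2 fold change of 0.89 did not pass (95% interval 0.32 to 1.47, adjusted p = 0.07). In the full list of undifferentiated spermatogonia, with the genes shared with somatic cells, 1 of 39 tested genes fell, beside 5.84% of all tested genes. That gene was Ngfr, the low-affinity neurotrophin receptor, which mesenchymal and neural crest cells also express. Ngfr had 2.11, 2.65 and 1.31 FPKM in knockout cultures and 7.45, 4.10 and 3.53 FPKM in wildtype cultures (-0.97, adjusted p = 0.0193). The Ngfr call was lost without wildtype replicate 1 (adjusted p = 0.0768) and without knockout replicate 3 (0.112).

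Kit and Stra8, which mark differentiation and meiotic entry, were low in all 6 cultures. Kit, the receptor that marks differentiating spermatogonia, had 3.72, 2.34 and 1.66 FPKM in knockout cultures and 2.78, 3.24 and 1.93 FPKM in wildtype cultures (log2 fold change -0.05, interval -0.48 to 0.37). Stra8, a retinoic acid target needed for meiotic entry, had 1.89, 2.67 and 0.216 FPKM in knockout cultures and 1.68, 1.32 and 5.28 FPKM in wildtype cultures. The spread of Stra8 within each group exceeded the difference between them (-0.53, interval -1.48 to 0.42). In isolated spermatogonia of the same age, Kit averaged 28.4 FPKM in knockout and 18.4 FPKM in wildtype, and Stra8 averaged 49.7 FPKM in knockout and 39.4 FPKM in wildtype.

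None of 16 tested genes of differentiating spermatogonia passed (median -0.02). At an unadjusted p under 0.05 there was 1, beside 16.6% of all tested genes. Of 27 genes of meiotic entry and retinoic acid handling 1 fell, beside 5.84% of all tested genes. That gene was Crabp1, a retinoic acid-binding protein that somatic cells also make, with 55.3, 65.5 and 45.5 FPKM in knockout cultures and 168.5, 95.3 and 171.5 FPKM in wildtype cultures (log2 fold change -1.34, limma adjusted p = 0.00984). The call on Crabp1 was lost without knockout replicate 3 (adjusted p = 0.0613). Mei4, needed for meiotic double-strand breaks, was higher in each knockout library than in each wildtype library, at 1.38, 1.46 and 1.96 FPKM in knockout cultures and 0.931, 0.825 and 1.18 FPKM in wildtype cultures. Mei4 did not pass (0.39, adjusted p = 0.0587).

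General germ cell genes and the piRNA pathway, which silences transposons, had 0 calls of 44 and of 22 tested by limma. At an unadjusted p under 0.05 there were 5 and 6, beside 16.6% of all tested genes. Ddx4, the germ cell RNA helicase, had 82.5, 99.2 and 114 FPKM in knockout cultures and 98.5, 68.6 and 87.7 FPKM in wildtype cultures (log2 fold change 0.21, interval -0.11 to 0.54). Dazl, a germ cell RNA-binding protein, averaged 376 ± 21.1 FPKM in knockout cultures and 389.5 ± 111.6 FPKM in wildtype cultures (SD, n = 3 each; -0.01). Both genes overlapped between the groups. In the piRNA list 18 of 22 log2 fold changes were above 0 (median 0.20), beside 5684 of all 12046 tested genes (median -0.02). Tdrd9, a piRNA helicase, was at 0.52 (adjusted p = 0.141) and Exd1, a piRNA biogenesis factor, at 0.47 (adjusted p = 0.1).

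**Figure D4:**
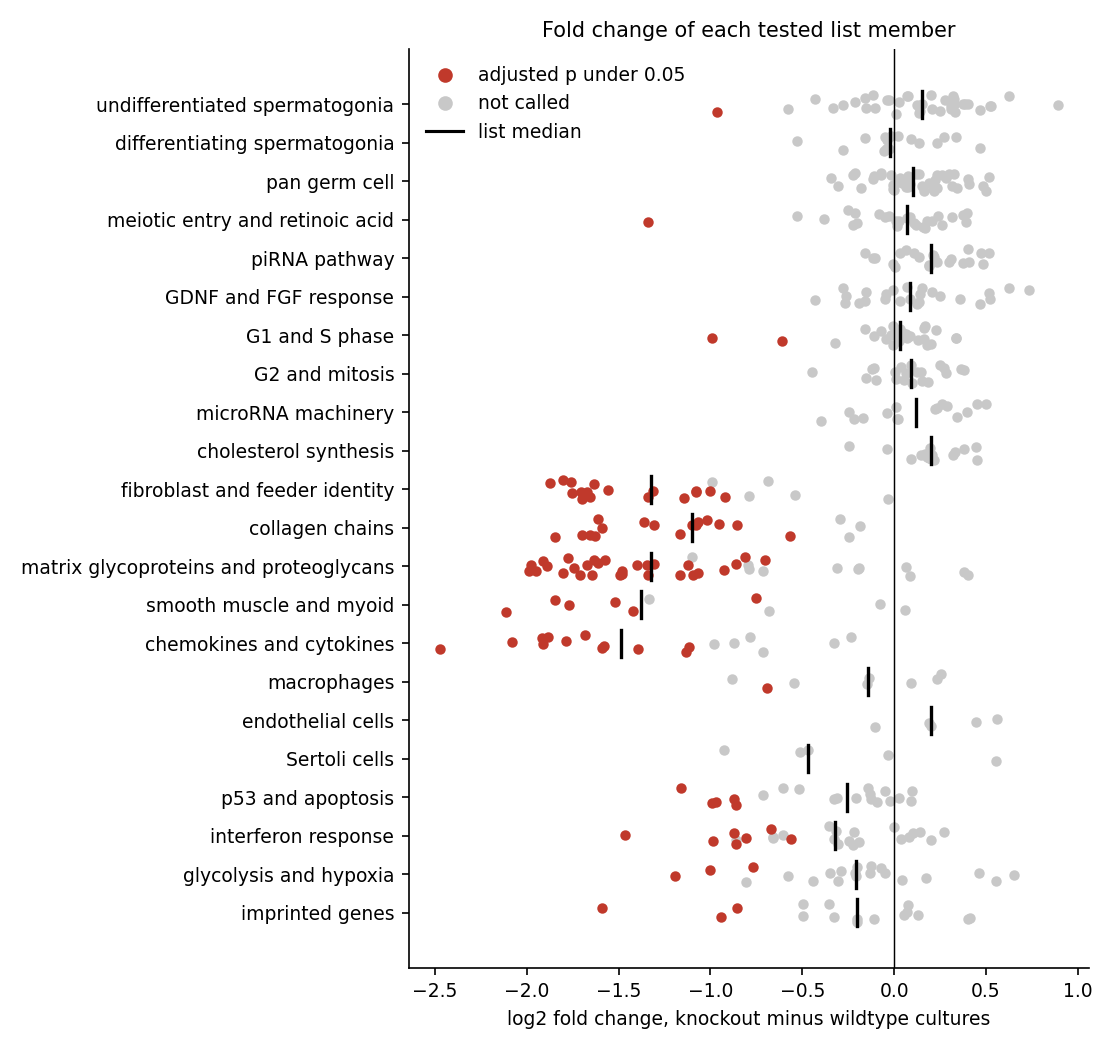
Log2 fold change (knockout minus wildtype cultures) of each tested member of 22 lists, 1 point a gene; red points have an adjusted p under 0.05, grey points do not, and black lines are list medians. The medians of the fibroblast, collagen, matrix, smooth muscle and chemokine lists lie between -1.49 and -1.10, and those of the germ cell lists between -0.02 and 0.20.

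Growth factor response and the cell cycle showed few calls. None of 25 tested genes of the GDNF and FGF response passed (median 0.08), with 5 at an unadjusted p under 0.05, beside 16.6% of all tested genes. In the G1 and S phase list 2 of 29 fell, near the 5.84% of all tested genes, and both are cyclin-dependent kinase inhibitors. Cdkn1a, the p53-induced inhibitor p21, had 25.1, 25.9 and 33.3 FPKM in knockout cultures and 53.5, 61.4 and 54.5 FPKM in wildtype cultures, without overlap (log2 fold change -0.99, limma adjusted p = 0.00258). The other, Cdkn2b, averaged 7.04 ± 0.67 FPKM in knockout cultures and 11.3 ± 1.1 FPKM in wildtype cultures (SD, n = 3 each; -0.61, adjusted p = 0.0408). Cdkn2b lost its call without any 1 of wildtype replicates 2 and 3 and knockout replicates 1, 2 and 3 (adjusted p from 0.0591 to 0.165). None of 21 genes of G2 and mitosis passed (median 0.09), with 3 at an unadjusted p under 0.05, beside the same 16.6%.

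In the p53 and apoptosis list 5 of 20 fell (median -0.26), beside 5.84% of all tested genes. Phlda3, a p53-induced inhibitor of Akt, had 8.46, 7.65 and 8.47 FPKM in knockout cultures and 17.5, 19.6 and 21.6 FPKM in wildtype cultures. The replicates of Phlda3 lay close together and the groups were well apart (log2 fold change -1.16, limma adjusted p = 8e-05). Ccng1, cyclin G1, fell by 0.86 on the log2 scale and Fas, the death receptor, by 0.97. The summed level of the stromal lists was also lower in the knockout cultures. It shares that direction with these genes and with the called interferon-induced, imprinted, hypoxia and early response genes that follow. Within the groups, some of these genes, such as Impact, followed the order of the stromal sums over the replicates. Others, such as Phlda3, did not. The part of the stromal level in these genes was not tested.

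Of 26 interferon-induced genes tested 7 fell, beside 5.84% of all tested genes. However, 4 of the 7, Irf7, Ifit3, Xaf1 and Usp18, were under 1 FPKM in every knockout culture and passed the level filter through the wildtype cultures alone. Among the 22 with at least 1 FPKM in some library of both groups, 3 fell, beside 559 of 11735 such genes among all tested. B2m, the invariant chain of class I histocompatibility molecules, had 72.6, 67.3 and 53.3 FPKM in knockout cultures and 176, 171 and 188 FPKM in wildtype cultures, without overlap (log2 fold change -1.47, limma adjusted p = 0.00204). Irf7, the interferon regulatory factor, had 0.248, 0.146 and 0.124 FPKM in knockout cultures and 1.41, 1.67 and 0.954 FPKM in wildtype cultures, a low level in both groups. Ifit3, an antiviral protein, averaged 0.101 ± 0.059 FPKM in knockout cultures and 0.962 ± 0.465 FPKM in wildtype cultures (SD, n = 3 each), and its call was lost when the 6 cultures were fitted alone.

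Imprinted, hypoxia and early response genes gave further calls. Meg3, a maternally expressed noncoding RNA, had 4.84, 5.19 and 3.37 FPKM in knockout cultures and 16.5, 15.6 and 13.9 FPKM in wildtype cultures, without overlap (log2 fold change -1.59, limma adjusted p = 4.79e-05). Grb10, a growth factor receptor adaptor, fell by 0.85 on the log2 scale and Impact, a translational regulator, by 0.94. These 3 were the calls among 16 imprinted genes tested, beside 5.84% lower over all tested genes. Of 21 glycolysis and hypoxia genes 3 fell, beside the same 5.84%. Among them were Adm, adrenomedullin (-1.19), and Vegfa, the vascular growth factor, with a wildtype mean 2.28 times the knockout mean. Pgk1, a glycolytic enzyme, also fell (-0.77), and its call was lost without wildtype replicates 2 or 3 or knockout replicates 2 or 3 (adjusted p from 0.0654 to 0.163). Of 18 immediate early and heat shock genes 2 fell, beside 5.84% of all tested genes: Jun, a subunit of the transcription factor AP-1 (-0.86), and the stress-induced Gadd45b (-0.71). None of 16 cholesterol synthesis genes and none of 16 microRNA machinery genes passed, with medians of 0.20 and 0.12. At an unadjusted p under 0.05 there were 3 genes each, beside 16.6% of all tested genes.

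Most genes that fell were scarce in the spermatocytes of the same series. Of the 704 lower genes, 522 (74.15%) had a mean under 1 FPKM in wildtype spermatocytes, beside 3938 of all 12046 tested genes (32.69%) and 27 of the 39 higher genes (69.23%). Of the 97 germ cell list genes 31 (31.96%) were under that level. Gene families taken whole by symbol were chosen after their values were seen and are given without a test, beside 5.84% lower over all tested genes. Lower members numbered 6 of 9 annexins, 5 of 9 S100 proteins, 10 of 14 matrix metalloproteinases, all 3 tissue inhibitors of metalloproteinases, 4 of 6 galectins, 3 of 4 tropomyosins and 2 of 6 IGF-binding proteins. They numbered 1 of 16 Hox genes, 1 of 14 integrin chains, 1 of 11 Rhox genes, 1 of 14 Tex genes, 0 of 7 Tudor domain genes and 0 of 7 GDNF and FGF receptors. Of these lower members, S100a16, Mmp8 and Rhox7 were under 1 FPKM in every knockout culture and passed the level filter through the wildtype cultures alone.

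Other large falls came from genes outside the marker lists. Nupr1, a stress-induced chromatin protein, had 6.54, 6.34 and 1.52 FPKM in knockout cultures and 19.8, 20.8 and 18.95 FPKM in wildtype cultures, with knockout replicate 3 lowest (log2 fold change -2.01, limma adjusted p = 0.000934). Apod, apolipoprotein D, had 3.33, 7.15 and 3.45 FPKM in knockout cultures and 26.1, 13.3 and 23.5 FPKM in wildtype cultures (-1.97). Gng11, a G protein gamma subunit, fell by 1.89 on the log2 scale. Ctla2a, a cathepsin inhibitor, averaged 2.46 ± 1.47 FPKM in knockout cultures and 12.5 ± 5.5 FPKM in wildtype cultures (SD, n = 3 each; -1.99). Igfbp7, an insulin-like growth factor-binding protein, averaged 22.7 ± 7.5 FPKM in knockout cultures and 93.2 ± 8.8 FPKM in wildtype cultures (-2.04, adjusted p = 0.0177). Igfbp7 lost its call without wildtype replicate 1 (adjusted p = 0.058) and without knockout replicate 3 (0.101).

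Of the 39 higher genes 0 were in the stromal or germ cell lists. The largest was Rpl29, a protein of the large ribosomal subunit, with 211, 237 and 307 FPKM in knockout cultures and 34.7, 33.4 and 43.5 FPKM in wildtype cultures (log2 fold change 2.72, limma adjusted p = 0.00559). Ribosomal protein genes have many processed copies, so the assignment of its reads is uncertain. It was the single gene called among 77 ribosomal protein genes tested. Grik3, a kainate receptor subunit, had 7.63, 6.28 and 7.70 FPKM in knockout cultures and 3.91, 3.10 and 2.33 FPKM in wildtype cultures, without overlap (1.01, adjusted p = 0.00172). Cyp2u1, a fatty acid hydroxylase, had 4.60, 4.70 and 7.12 FPKM in knockout cultures and 2.39, 2.14 and 2.01 FPKM in wildtype cultures (1.00, adjusted p = 0.00152). Zfp185, a LIM domain protein of the actin cytoskeleton, averaged 5.05 ± 0.95 FPKM in knockout cultures and 2.66 ± 0.38 FPKM in wildtype cultures (SD, n = 3 each; 0.72).

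The other 11 higher genes named by size had log2 fold changes from 0.53 to 0.93: Fgd5, Tmc8, Abca1 (the cholesterol exporter), Depdc7, Shank3 (a synaptic scaffold), Pik3c2b (a class II phosphoinositide kinase), Parp16, Mast3, Aste1, Six4 (a homeobox factor) and Ubox5. All 11 lost the call without knockout replicate 3 (limma adjusted p from 0.0608 to 0.162). Without wildtype replicate 3, 8 of them lost it (0.056 to 0.118), and without knockout replicate 2, 8 (0.0507 to 0.12). The number of higher genes was 10 without knockout replicate 3, 83 without knockout replicate 1 and 78 without wildtype replicate 1, against 39 with all 6.

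Genes with matches to the miR-202 seeds were called at about the rate of all genes. The words searched were those complementary to bases 2 to 8, ATACCTC for the 3p arm and CATAGGA for the 5p arm, on the sense strand of annotated 3′ UTRs. Of 10650 tested genes with an annotated 3′ UTR, 0.3% were called higher and 6.06% lower, with a median log2 fold change of -0.01. Of 644 genes with a 3p match, 3 were called higher and 39 (6.06%) lower, with a median log2 fold change of 0.02. Of 893 genes with a 5p match, 2 were called higher and 49 (5.49%) lower, with the same median to 2 decimals. Of 49 genes with at least 2 matches to the 3p arm, 0 were higher and 2 lower. Of 91 with at least 2 matches to the 5p arm, 0 were higher and 4 lower. Both of these sets had a median of 0.05. Whether the medians differed from that of all genes was not tested.

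Among genes named as miR-202 targets in the literature, 0 of 4 passed, and 1 had an unadjusted p under 0.05. Dmrtb1, a transcription factor that gates meiotic entry, had 4.53, 5.60 and 2.75 FPKM in knockout cultures and 1.52, 2.84 and 4.36 FPKM in wildtype cultures, with overlap (log2 fold change 0.47, interval -0.05 to 0.98). Espl1, separase, which cleaves cohesin, had 36.7, 42.1 and 33.9 FPKM in knockout cultures and 32.4, 34.7 and 20.6 FPKM in wildtype cultures (0.38, interval 0.00 to 0.76). Cpeb1, a translational regulator, was at 0.16 (interval -0.38 to 0.70) and Rbfox2, a splicing factor, at -0.06 (interval -0.43 to 0.31).

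The promoters of the lower genes were read for the AP-1 word TGANTCA because Jun fell with Mmp3, a known AP-1 target; the word was chosen after the values were seen. RefSeq promoters of 250 bases before to 50 bases after the gene start were searched on both strands, where this palindromic word reads alike. It occurred in 42 of 476 promoters of lower genes (8.82%), in 3 of 25 of higher genes (12%), in 398 of 8607 of tested genes (4.62%) and in 2144 of all 27025 (7.93%). Among the 15 lower genes named by size 9 had a promoter in the table, and Mmp3 and Ctla2a held the word. Their promoters are shown with the word in capitals, for Mmp3 from chr9:7445572-7445871 (plus strand) and for Ctla2a from chr13:60936576-60936875 (minus strand, GRCm38.p6).
Mmp3: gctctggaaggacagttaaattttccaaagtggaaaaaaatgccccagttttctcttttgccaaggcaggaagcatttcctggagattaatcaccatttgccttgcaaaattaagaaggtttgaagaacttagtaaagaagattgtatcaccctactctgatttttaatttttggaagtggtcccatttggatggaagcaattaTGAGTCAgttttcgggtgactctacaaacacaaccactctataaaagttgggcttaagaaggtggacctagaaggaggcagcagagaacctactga
Ctla2a: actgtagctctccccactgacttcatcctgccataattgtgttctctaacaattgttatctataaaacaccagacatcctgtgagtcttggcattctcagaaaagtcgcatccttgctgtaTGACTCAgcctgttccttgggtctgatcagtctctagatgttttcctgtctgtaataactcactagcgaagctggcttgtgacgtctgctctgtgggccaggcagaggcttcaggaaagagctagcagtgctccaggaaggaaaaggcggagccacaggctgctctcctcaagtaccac
The word starts 46 bases before the gene start of Mmp3 and 129 bases before that of Ctla2a. A match in these letters does not show binding.

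The effect in cultures was set beside that in isolated spermatogonia, with which it shares no library. In spermatogonia 691 of 11997 genes fell (5.76%) and 110 rose (0.917%), and in spermatocytes 1 of 10271 fell (0.00974%) and 0 rose. Of the 704 genes lower in knockout cultures, 528 were also tested in spermatogonia, and 174 of these were lower there (33%) and 0 higher. Over the 11141 genes tested in both, 457 were lower in spermatogonia (4.1%), and the 174 are 38.1% of these. Of the 704, 198 were tested in spermatocytes, and 0 of these were called. Of 90 stromal list genes tested in both cultures and spermatogonia, 33 fell in both, 21 fell in cultures and were not called in spermatogonia, 9 the reverse, and 27 were called in neither. Col1a2 fell in spermatogonia too, to 50.5 FPKM in knockout against 170.9 FPKM in wildtype (log2 fold change -1.73, limma adjusted p = 0.00863), as did Acta2, to 13.7 FPKM in knockout against 106.9 FPKM in wildtype. Ccl2 and Ccl8 were near 0 in spermatogonia: Ccl2 averaged 0.697 FPKM in knockout and 1.17 FPKM in wildtype, and Ccl8 was listed at 0 in both.

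**Figure D5:**
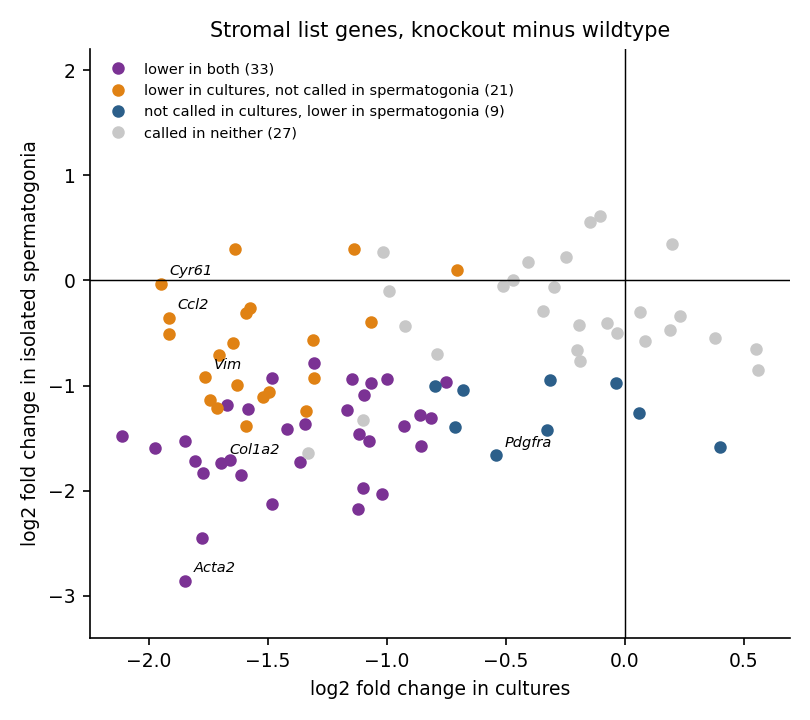
Log2 fold change (knockout minus wildtype) in isolated spermatogonia (vertical) against that in cultures (horizontal) for the 90 stromal list genes tested in both; colours give the calls at an adjusted p of 0.05. 33 genes fell in both, and 21 fell in cultures and were not called in spermatogonia.

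The difference between both effects was tested directly. It passed for 16 of 11141 genes (0.144%) against spermatogonia and for 3 of 8453 (0.0355%) against spermatocytes. Against spermatogonia, the effect was more negative in cultures for Ccl2, Ctla2a, Phlda3, Ass1, Tm4sf1, Mvp and Zfp511. It was more negative in spermatogonia for H19, Plagl1, Sfrp1, Hspa1a, Hspa1b, Armcx2, Emid2, Golm1 and Gm12191. In spermatogonia Ctla2a and Tm4sf1 passed the level filter through the knockout libraries alone, and Ccl2 and Gm12191 through the wildtype libraries alone. H19 was chosen as the example after its values were seen. H19, an imprinted noncoding RNA, had 43.1, 41.4 and 48.0 FPKM in knockout cultures and 45.1, 34.2 and 23.4 FPKM in wildtype cultures. In spermatogonia H19 had 19.5 and 14.8 FPKM in knockout and 38.0 and 61.4 FPKM in wildtype. The 16 became 3 without wildtype spermatogonia replicate 2, 5 and 7 without knockout spermatogonia replicates 2 and 1, and 26 and 29 without wildtype cultures 1 and 3. The 3 against spermatocytes became 0 without 8 of the 12 libraries compared, one at a time, and 41 without knockout spermatocytes replicate 1.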

How the data were processed

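RNA from 3 knockout and 3 wildtype cultures was sequenced, within 16 libraries. Per the labels' protocols, RNA was extracted with TRIzol and made into directional NEBNext Ultra libraries for a HiSeq-X10; the series' design text calls the samples biological replicates. The deposited unit is FPKM. TopHat2 (2.0.6), the mm9 build and Cufflinks (2.0.2) stand in the submitters' processing notes, which give them no role or order. Read counts were not used here, so depth is unknown; the most frequent ratio between low values of the same gene, an estimate, puts the libraries at 0.914 to 1.19 times the fragments of knockout replicate 1.

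The files (23021 rows each) were joined by symbol; 259 symbols on more than 1 row were dropped. limma 3.58.1 in R 4.3.3 was fitted to log2(FPKM + 1), which understates the changes of low genes, for 14480 genes with 1 mean per group over all 16 libraries (trend = TRUE, two-sided, 10 residual degrees of freedom). Genes were named as the 15 largest called changes in each direction with a mean FPKM of at least 5 and no overlap, up to 4 per list, and label checks; genes outside this rule were chosen after their values were seen. The members and lists were chosen with earlier results of these data known. The fit was tested on simulated data. Alternatives changed the pseudocount (0.1), filter, scaling, covariate, block and libraries. Sequences are RefSeq's (GRCm38.p6) and 3′ UTRs and transcript lengths GENCODE M21's; other coordinates were not used.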

Additional observations from a re-analysis of the deposited data

Results flagged for a closer look

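For 4 genes described above, the knockout effect in cultures differed from that in another cell type by a test of the difference itself (limma adjusted p, over the genes tested in both). The log2 effect on Ccl2 was -1.91 in cultures and -0.36 in isolated spermatogonia, a difference of -1.56 (adjusted p = 0.0341), and its level was 0.615 and 0.780 FPKM in knockout spermatogonia and 1.11 and 1.23 FPKM in wildtype spermatogonia. Ctla2a had effects of -1.99 in cultures and 0.99 in spermatogonia, a difference of -2.97 (adjusted p = 0.0315). In spermatogonia Ctla2a was low, at 1.24 and 2.08 FPKM in knockout and 0.514 and 0.160 FPKM in wildtype. It passed the level filter there through the knockout libraries alone. For Phlda3 the effects were -1.16 in cultures and 0.28 in spermatogonia, a difference of -1.44 (adjusted p = 0.00803). Gadd45b had effects of -0.71 in cultures and 0.39 in spermatocytes, a difference of -1.09 (adjusted p = 0.0359). With a pseudocount of 0.1 the number of differences from spermatogonia that passed was 0, so the calls on Ccl2, Ctla2a and Phlda3 were lost. The call on Gadd45b was lost with median-ratio scaling and without any 1 of 8 of the 12 libraries compared, settings in which 0 differences from spermatocytes passed.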

How the results depend on the processing

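The direction of the culture comparison, more lower than higher genes, held under every alternative that called any gene, and the counts varied. With all libraries and the main settings 743 genes were called, 39 higher and 704 lower, with 75 stromal and 0 germ cell list genes. A pseudocount of 0.1 gave 399 calls, 11 higher and 388 lower. Without the level filter 60 were higher, with 1 germ cell list gene, and with quantile normalization 83 were higher, with 3, which raised the higher share of calls to 13.7%, against 5.25%. Median-ratio scaling on the germ cell lists left 11 higher, and together with leaving out wildtype replicate 3, an alternative chosen after seeing the data, 10. The 6 cultures alone gave 255 calls, 4 higher and 251 lower, with 38 stromal list genes. Named calls lost in that fit included those on Xist, Col1a2, Acta2, Thbs2, Tnc, Fas, Gadd45b and Grb10. Leaving out 1 culture at a time gave 483 to 804 calls, 10 to 83 higher and 473 to 761 lower, with 58 to 81 stromal and 0 to 5 germ cell list genes.

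The replicate block gave 661 calls, 18 higher and 643 lower. The deviations of same-numbered knockout and wildtype cultures from their group means had correlations of -0.00017, -0.063 and 0.23. Differently numbered cultures reached 0.30 (knockout replicate 1 with wildtype replicate 2). These values show no clear pairing by number and cannot exclude one.

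With each library's mean fibroblast level as a covariate in the cultures, limma called 0 genes, 0 higher and 0 lower, with 0 stromal list genes and 1014 genes at an unadjusted p under 0.05. The log2 fold change then reversed for Zfp185 (-0.072), Aste1 (-0.36), Nupr1 (0.34), Thbs2 (1.12), Sparc (0.51), Tnc (1.09), Ngfr (0.72), Cd44 (0.15), Col5a2 (0.90), Col7a1 (0.33), Col1a2 (0.92), Lyz2 (0.15), Xist (0.66), Col1a1 (1.11) and Acta2 (0.46). The mean fibroblast level was itself lower in every knockout culture than in every wildtype culture, so this fit could hardly separate it from genotype. The lost calls and the reversals therefore do not show what part the fibroblast level had, which was not tested.

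The 16 genes whose effect differed between cultures and spermatogonia became 0 with the pseudocount of 0.1, 319 without the filter, 6 with the filter in 3 libraries, 102 with quantile normalization, 8 with median-ratio scaling, 43 with germ list scaling (45 also without wildtype replicate 3), 1 with the replicate block, 5 with only the groups compared and 3 to 29 with 1 library left out. The 3 against spermatocytes became 229 without the filter, 12 with quantile normalization, 0 with median-ratio scaling, 7 with germ list scaling (5 also without wildtype replicate 3), 1 with only the groups compared and 0 to 41 with 1 library left out. The causes were not tested. Of 68 named calls, 29 were kept under every alternative except the covariate.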

Other observations

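Rpl29 and the unnamed gene model Gm12191, the 2 largest rises in knockout cultures and chosen here after their values were seen, were uneven over the whole series. Rpl29 had 211, 237 and 307 FPKM in knockout cultures and 34.7, 33.4 and 43.5 FPKM in wildtype cultures. In isolated spermatogonia Rpl29 had 35.1 and 354 FPKM in the 2 knockout libraries and 194 and 239 FPKM in the 2 wildtype libraries. Its 6 spermatocyte values lay between 116 and 204 FPKM. Gm12191 had 8.24, 2.14 and 7.09 FPKM in knockout cultures and 0.00081, 1.49 and 0.0099 FPKM in wildtype cultures. In spermatogonia Gm12191 had 0.00014 and 0.547 FPKM in knockout and 6.03 and 8.99 FPKM in wildtype, the opposite order, and that difference passed the test (limma adjusted p = 0.0071).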
